A study of Homo sapiens with 9 samples.

Results

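CYP1B1 and the genes of the aryl hydrocarbon receptor were followed in HEK293T cells that carried CIC::DUX4 or CIC::NUTM1. The 8 genes, of 62700 in the count table, were taken by symbol: the receptor AHR, its partner ARNT, its repressor AHRR, and the target genes CYP1B1, CYP1A1, CYP1A2, TIPARP and NQO1. CYP1B1 was chosen because its level was lower with both fusions than in control cells, so those values are given as a description, without a test. The other 7 genes were chosen for their known roles, to ask whether the receptor and its other targets were lower too. All 8 were found, and 7 passed the filter on low counts. CYP1A2 did not.

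HEK293T is a human embryonic kidney line. Its cells were given an empty vector (the controls), a plasmid for HA-CIC::DUX4, or a plasmid for HA-CIC(ex20)::NUTM1(ex6), here named CIC::NUTM1, by reverse transfection. RNA was taken about 48 hours later, with 3 libraries per group. CIC is a transcriptional repressor that becomes part of an activating fusion protein in some sarcomas. Expression was transient, from a plasmid, and the promoter of that plasmid is not given in the sources used here. Replicates were transfected on different days but are not said to come from separate cell stocks, so p-values measure the spread between these transfections, which may be technical.

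The aryl hydrocarbon receptor is a transcription factor that is switched on by small molecules, among them dioxins, polycyclic aromatic hydrocarbons and products of tryptophan. Without a ligand it is held in the cytoplasm by HSP90 chaperones. With a ligand it enters the nucleus, pairs with ARNT and binds short DNA elements named xenobiotic response elements (XREs). CYP1A1, CYP1A2 and CYP1B1, the cytochrome P450 enzymes of family 1, are its classic targets, and AHRR and TIPARP are induced by it and restrain it in turn.

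Libraries held 16970771 to 33655445 counts. Levels are given as CPM, counts scaled to library size and, by TMM, to library composition. All 7 markers of the 293T line were tested, and their sum was 1380 to 1580 CPM in control cells, 1290 to 1320 in CIC::DUX4 cells and 1400 to 1500 in CIC::NUTM1 cells. Single markers of the line moved in both directions: edgeR called 0 higher and 2 lower (NEFM and NEFL) for CIC::DUX4, and 3 higher (CDH2, VIM and LHX1) and 3 lower (NEFM, NEFL and INA) for CIC::NUTM1. Of all tested genes, 6.96% were called higher and 1.27% lower for CIC::DUX4, and 11.5% higher and 3.83% lower for CIC::NUTM1. The 6 kidney tubule markers, of which 3 were tested, summed to 20.5 to 28.8, 27 to 32.4 and 31.7 to 40.5 CPM in the same order. LRP2 was the most abundant of them, UMOD was at 0 counts in every library, and SLC12A1 was at 0 counts in controls and at 1.19 ± 0.375 and 1.86 ± 0.254 CPM (SD, n = 3) in CIC::DUX4 and CIC::NUTM1 cells. The 3 hepatocyte markers, of which 1 was tested, summed to 0 to 0.457, 0.671 to 1.07 and 0.918 to 1.35 CPM. Sums of 3 fibroblast markers were 31.3 to 35.1, 27.2 to 33.4 and 25.6 to 30.6 CPM, of 3 leukocyte markers 1.14 to 3.13, 1.67 to 2.45 and 2.38 to 4.92 CPM, and of 3 endothelial markers 0.0586 to 0.28, 0.176 to 0.801 and 0.115 to 0.6 CPM. Within these sums the leukocyte marker PTPRC was at 0.0195 ± 0.0338 CPM in controls and 0.412 ± 0.436 and 0.909 ± 0.461 CPM with the fusions. The part of these cell type markers in the results was not tested. In such bulk libraries, fewer cells with an RNA and less of it per cell cannot be told apart.

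The receptor itself was not called lower with either fusion. AHR (ENSG00000106546, chr7:16916359-17346152, + strand, GRCh38, GENCODE 29) had 7.95, 9.16 and 9.9 CPM in the empty vector libraries, 9.92, 8.53 and 12.6 in those of CIC::DUX4 and 9.78, 12 and 14.4 in those of CIC::NUTM1. The groups overlapped, and the highest libraries belonged to the fusions. The fitted log2 fold change was 0.19 (95% interval -0.17 to 0.55) for CIC::DUX4 and 0.42 (0.06 to 0.77) for CIC::NUTM1, and neither passed over all genes (edgeR adjusted p = 0.625 and 0.112). With single libraries left out, these values ranged from 0.03 to 0.31 and from 0.25 to 0.54. The difference of CIC::NUTM1 from CIC::DUX4 was 0.23 (-0.13 to 0.59; edgeR adjusted p = 0.538). AHR shares 2373 exonic bases with genes on its own strand in this annotation, so part of its counts is uncertain.

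ARNT, the partner with which the ligand-bound receptor binds DNA, was the most abundant member per length of transcript in control cells. ARNT (ENSG00000143437, chr1:150809705-150876768, - strand) had 65.5, 71 and 73.5 CPM in the controls, 57.6, 64.1 and 58.9 in CIC::DUX4 cells and 59.5, 64.9 and 66.2 in CIC::NUTM1 cells. All 3 CIC::DUX4 libraries lay below the lowest control library, which was so in that direction for 11% of all tested genes. The log2 fold change was -0.22 ± 0.0794 (SE) for CIC::DUX4 and -0.14 ± 0.0793 for CIC::NUTM1, and no change was called (edgeR adjusted p = 0.101 and 0.267). The 95% intervals were -0.38 to -0.05 and -0.30 to 0.023, and that of CIC::NUTM1 less CIC::DUX4 was -0.09 to 0.24.

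AHRR, a repressor that competes with the receptor for ARNT, was expressed at a low level. AHRR (ENSG00000063438, chr5:304176-438291, + strand) had 25, 58 and 27 counts in the controls, 43, 33 and 23 in CIC::DUX4 cells and 20, 34 and 13 in CIC::NUTM1 cells. The levels were 1.4 ± 0.309, 1.52 ± 0.152 and 1.06 ± 0.337 CPM (SD, n = 3). Log2 fold changes of 0.12 (-0.68 to 0.91) and -0.40 (-1.22 to 0.41) from the control, in the same order, were not called (edgeR adjusted p = 0.918 and 0.572). Between the fusions, the CIC::NUTM1 libraries all lay below the CIC::DUX4 libraries, as for 9.36% of tested genes, without a call (edgeR adjusted p = 0.543). AHRR shares 244 exonic bases with genes on its own strand, where PDCD6 and AC010442.2 overlap it, so some of its reads are uncertain.

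CYP1B1 encodes a P450 enzyme that oxidises oestrogens, retinoids and polycyclic hydrocarbons outside the liver. CYP1B1 (ENSG00000138061, chr2:38066973-38109902, - strand) was at 13.7, 15.6 and 20.5 CPM in control libraries, 6.37, 10.6 and 9.17 after CIC::DUX4 and 5.4, 8.88 and 5.44 after CIC::NUTM1. Every fusion library lay below every control library, as the groups did in that direction for 11% of tested genes for CIC::DUX4 and 12.9% for CIC::NUTM1. The mean was 0.525 times that of the control for CIC::DUX4 and 0.396 times for CIC::NUTM1, both set against the same 3 control libraries. With single libraries left out, the log2 difference was -1.12 to -0.75 for CIC::DUX4 and -1.62 to -1.15 for CIC::NUTM1.

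The contrast between the fusions was not used to choose CYP1B1. Its log2 difference of CIC::NUTM1 from CIC::DUX4 was -0.38 ± 0.22 (SE; 95% interval -0.84 to 0.08), which did not pass (edgeR adjusted p = 0.393), and the libraries overlapped. In GENCODE 29, 2 genes on the opposite strand and 1 on its own strand overlap CYP1B1, sharing 774 and 69 exonic bases with it. The antisense gene CYP1B1-AS1 had at most 10 counts in any library, and RMDN2, another overlapping gene, was at 2.32 ± 0.284, 2.45 ± 0.898 and 2.3 ± 0.391 CPM (SD, n = 3) in control, CIC::DUX4 and CIC::NUTM1 cells. Of the 4 tested genes around CYP1B1 (RMDN2, ATL2, HNRNPLL and CDC42EP3), none was called lower in any comparison by edgeR, where 1 to 2 passed an unadjusted p under 0.05 in either direction. HNRNPLL, which encodes an RNA-binding regulator of splicing, was called higher with CIC::NUTM1 (0.34 ± 0.0875, SE, log2; edgeR adjusted p = 0.00702), a call lost without CIC::NUTM1 replicate 3.

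CYP1A1, the P450 most often read as a sign of receptor activity, changed in the opposite direction. CYP1A1 (ENSG00000140465, chr15:74719542-74725610, - strand) had 32, 79 and 40 counts in the controls, 153, 116 and 72 in CIC::DUX4 cells and 103, 161 and 185 in CIC::NUTM1 cells. Scaled, these were 1.83, 2.31 and 1.6 CPM, then 5.84, 5.56 and 4.23, then 6.18, 6.16 and 9.58. The lowest fusion library was above the highest control library, a pattern found in that direction for 14.8% of tested genes for CIC::DUX4 and 18.2% for CIC::NUTM1. CYP1A1 rose 2.72-fold with CIC::DUX4 and 3.81-fold with CIC::NUTM1 by its mean CPM. The log2 fold changes were 1.43 ± 0.25 (SE; edgeR adjusted p = 0.000245) and 1.91 ± 0.25 (edgeR adjusted p = 2.39e-06).

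Both calls on CYP1A1 were kept in each of 18 alternative fits, with log2 fold changes of 1.31 to 1.61 and 1.65 to 2.09. Every CIC::NUTM1 library was above every CIC::DUX4 library, as for 12.6% of tested genes, but the difference of 0.48 (95% interval 0.0045 to 0.95) did not pass (edgeR adjusted p = 0.269). No gene overlaps CYP1A1 in GENCODE 29. None of its 3704 distinct stretches of 50 bases occurs in a transcript of CYP1A2 or CYP1B1.

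**Figure D1:**
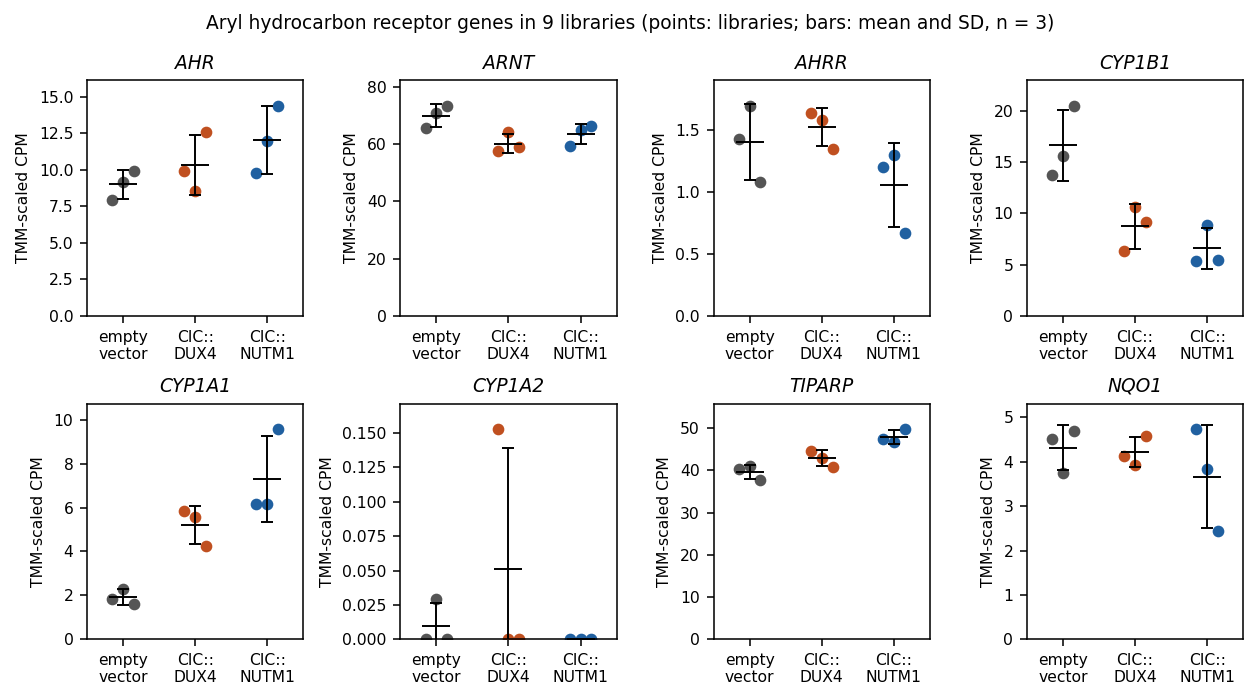
TMM-scaled CPM (vertical axis, from 0, with its own range for each gene) of the 8 genes in the 3 groups (horizontal axis). Points are single libraries and bars the mean and SD of 3. CYP1B1 is highest in the control libraries, at 13.7 to 20.5 CPM, and CYP1A1 lowest there, at 1.6 to 2.31 CPM.

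CYP1A2, a P450 of hepatocytes encoded beside CYP1A1 on the opposite strand, was close to silent. CYP1A2 (ENSG00000140505, chr15:74748844-74756202, + strand) had 0, 1 and 0 counts in the controls, 4, 0 and 0 in CIC::DUX4 cells and 0, 0 and 0 in CIC::NUTM1 cells. For the CIC::NUTM1 libraries, a count of 0 allows a level of up to 0.18, 0.115 and 0.155 CPM, for counting error only. These counts are too few to compare the groups, and a permutation test of 3 against 3 libraries cannot go below 0.1 (exact two-sided p = 1 in each comparison). The starts of CYP1A1 and CYP1A2 are 23.3 kb apart in RefSeq.

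The bases before the starts of 4 targets are shown to set CYP1A1, which rose, beside CYP1A2, its silent neighbour, and AHRR and TIPARP, the feedback genes. Each is the 250 bases upstream of a RefSeq start (GRCh38.p14), on the strand of the gene, with matches to the XRE core GCGTG on either strand in capitals. The windows are chr15:74725529-74725778 (- strand), chr15:74748595-74748844 (+ strand), chr5:321464-321713 (+ strand, the first of 2 starts) and chr3:156674340-156674589 (+ strand, the first of 3 starts).
CYP1A1: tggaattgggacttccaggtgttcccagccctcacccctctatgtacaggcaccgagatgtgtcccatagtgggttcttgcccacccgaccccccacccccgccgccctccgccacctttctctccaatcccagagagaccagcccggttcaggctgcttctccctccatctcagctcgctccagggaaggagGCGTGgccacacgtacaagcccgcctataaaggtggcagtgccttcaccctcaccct
CYP1A2: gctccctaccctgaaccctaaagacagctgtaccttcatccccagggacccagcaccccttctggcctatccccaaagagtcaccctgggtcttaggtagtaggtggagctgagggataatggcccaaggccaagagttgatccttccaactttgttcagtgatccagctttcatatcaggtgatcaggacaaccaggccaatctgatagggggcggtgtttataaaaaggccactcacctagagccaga
AHRR: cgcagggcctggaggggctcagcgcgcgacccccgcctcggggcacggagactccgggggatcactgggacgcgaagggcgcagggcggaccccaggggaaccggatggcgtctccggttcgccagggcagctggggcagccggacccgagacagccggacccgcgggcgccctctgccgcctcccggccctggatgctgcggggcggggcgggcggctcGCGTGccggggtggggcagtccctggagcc
TIPARP: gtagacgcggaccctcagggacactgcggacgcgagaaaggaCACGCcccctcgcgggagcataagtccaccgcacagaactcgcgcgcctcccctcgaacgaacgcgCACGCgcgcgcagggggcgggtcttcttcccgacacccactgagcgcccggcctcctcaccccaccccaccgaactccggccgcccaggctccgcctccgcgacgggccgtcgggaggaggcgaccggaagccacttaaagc
CYP1A1 has 1 core, 57 bases before the start. CYP1A2 has none in this window, AHRR has 1 at 30 bases and TIPARP has 2, on the opposite strand, at 208 and 142 bases. The window of the other AHRR start, not shown, has 2 cores, at 247 and 42 bases. Those of the other TIPARP starts have none, and neither do the windows of NQO1, AHR and ARNT. Bases further upstream were not searched, so a difference in XREs between CYP1A1 and CYP1A2 is not shown. The core is common: 32.2% of 35116 promoter windows of this length hold it. The longer form TNGCGTG, which contains the core, is held by 4.52% of the windows. Among the 10 windows of the members, only the AHRR window shown above holds it. The letters TGAATG, 1 form of the core that CIC binds, are in 9.92% of all windows and in none of the 10, both strands searched. Other forms were not searched, so absence of CIC sites is not shown. Of the 8 genes, 7 matched the promoter table, and no window for CYP1B1 was analysed here.

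TIPARP encodes an ADP-ribosyltransferase that modifies the receptor and lowers its activity. TIPARP (ENSG00000163659, chr3:156673235-156706770, + strand) was at 40.2, 41 and 37.7 CPM in control cells, 44.6, 43 and 40.9 in CIC::DUX4 cells and 47.3, 46.6 and 49.8 in CIC::NUTM1 cells. The CIC::NUTM1 libraries were the highest 3 of the 9. They lay above all control libraries, as for 18.2% of tested genes, and above all CIC::DUX4 libraries, as for 12.6%. TIPARP rose 1.21-fold with CIC::NUTM1, a log2 fold change of 0.27 ± 0.0843 (SE; edgeR adjusted p = 0.0282). That call was lost with library totals, upper quartile factors or no filter (edgeR adjusted p = 0.0703, 0.0588 and 0.0786). It was also lost without empty vector replicate 1 or 3 or CIC::NUTM1 replicate 1 or 3 (edgeR adjusted p = 0.0689, 0.143, 0.0509 and 0.146).

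For CIC::DUX4 the log2 fold change of TIPARP was 0.11 (95% interval -0.06 to 0.29; edgeR adjusted p = 0.517). The fusions were not shown to differ for it (0.16, -0.016 to 0.33; edgeR adjusted p = 0.336).

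NQO1, a quinone reductase that is induced through both the receptor and the oxidative stress factor NRF2, was not called in any comparison. NQO1 (ENSG00000181019, chr16:69706996-69726951, - strand) had 4.52, 3.75 and 4.69 CPM in the controls, 4.12, 3.93 and 4.59 in CIC::DUX4 cells and 4.74, 3.83 and 2.43 in CIC::NUTM1 cells. The groups overlapped, and CIC::NUTM1 replicate 3 alone stood below the rest. Log2 fold changes were -0.033 (95% interval -0.54 to 0.47) for CIC::DUX4 and -0.23 (-0.74 to 0.28) for CIC::NUTM1 (edgeR adjusted p = 0.968 and 0.606). NQO1 shares 575 exonic bases with a gene on the other strand, and without knowledge of the strand used in counting the reads of the pair cannot be told apart.

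**Figure D2:**
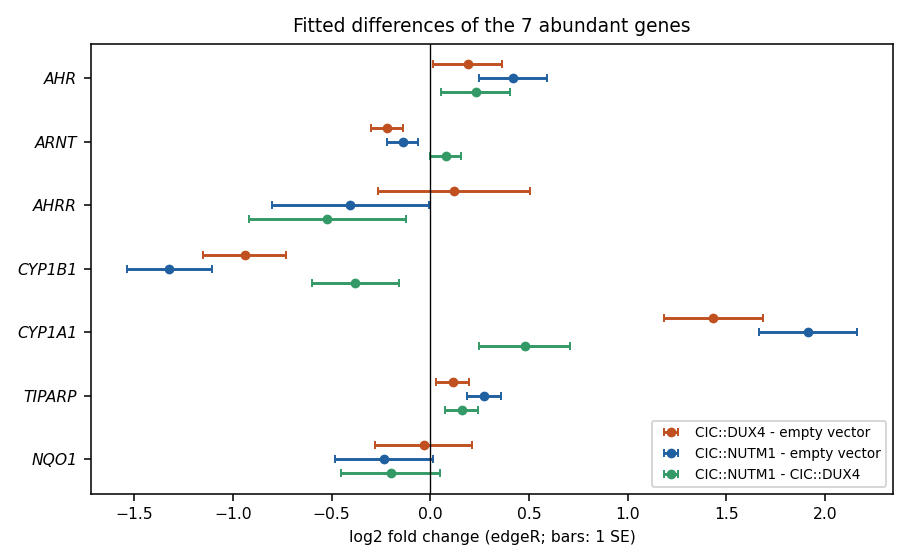
Log2 fold changes (horizontal axis) of the 7 genes that passed the filter, for the 3 comparisons in separate colours. Points are edgeR estimates and bars 1 SE. CYP1B1, chosen for its lower level, lies at -0.94 and -1.32 against the control and CYP1A1 at 1.43 and 1.91, while the other 5 genes lie between -0.40 and 0.42 there.

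Set beside CYP1B1, none of the other 6 tested genes was called lower with either fusion. For CIC::DUX4, edgeR called 1 of the 6 higher (CYP1A1) and 0 lower, where it called 8.24% of all tested genes, 6.96% higher and 1.27% lower. For CIC::NUTM1, it called 2 higher (CYP1A1 and TIPARP) and 0 lower, where it called 15.3% of all genes, 11.5% higher and 3.83% lower. Between the fusions 0 of the 7 tested genes passed with edgeR, and 0 of the 6 others with DESeq2 or limma, against 6.61% of all genes with edgeR, 4.97% higher and 1.64% lower. At an unadjusted p under 0.05, 1 passed there, CYP1A1 (edgeR unadjusted p = 0.048). Counts this small are not read as particular to these genes.

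The opposite course of the P450 genes changed which of the pair was more abundant per kilobase of exon, in all CIC::NUTM1 libraries but not in all of CIC::DUX4. Per kilobase of exon in GENCODE 29, CYP1B1 was at 2.28, 2.6 and 3.4 CPM in the control libraries and CYP1A1 at 0.533, 0.673 and 0.467. In CIC::DUX4 cells, CYP1B1 was at 1.06, 1.77 and 1.53 CPM per kilobase and CYP1A1 at 1.7, 1.62 and 1.23. In CIC::NUTM1 cells, CYP1B1 was at 0.898, 1.48 and 0.905 CPM per kilobase and CYP1A1 at 1.8, 1.79 and 2.79. Within a library the ratio of the genes does not depend on scaling. The ratio of CYP1B1 to CYP1A1 per kilobase was 4.28, 3.86 and 7.3 in controls, 0.623, 1.09 and 1.24 in CIC::DUX4 cells and 0.499, 0.823 and 0.324 in CIC::NUTM1 cells. Per kilobase, CYP1B1 was thus the more abundant of the pair in every control library and CYP1A1 in every CIC::NUTM1 library, while the CIC::DUX4 libraries lay on both sides. By counts not divided by exon length, the ratio was 7.5, 6.76 and 12.8 in controls. It was then 1.09, 1.91 and 2.17 in CIC::DUX4 cells and 0.874, 1.44 and 0.568 in CIC::NUTM1 cells. The switch in CIC::DUX4 replicate 1 and CIC::NUTM1 replicate 2 thus rests on the exon lengths used. Because CYP1B1 was chosen on these contrasts, the ratio is given without a test.

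**Figure D3:**
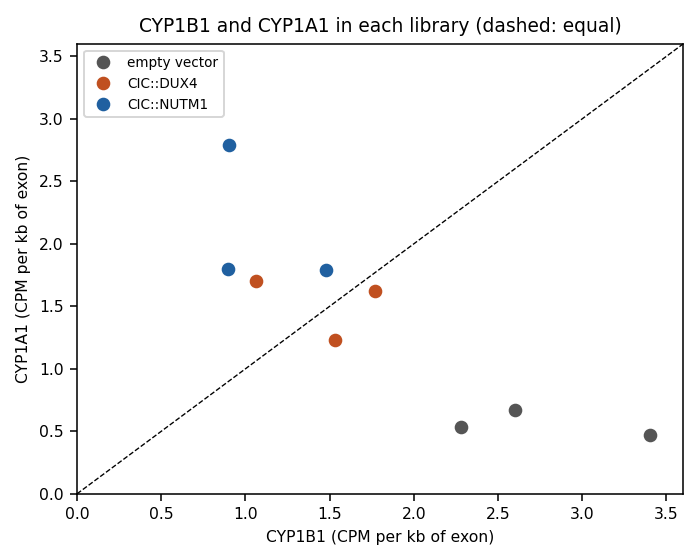
Level of CYP1B1 (horizontal axis) and CYP1A1 (vertical axis) in CPM per kilobase of exon, 1 point per library, coloured by group. The dashed line marks equal levels. The 3 control libraries lie below it (CYP1A1 at 0.467 to 0.673), the 3 CIC::NUTM1 libraries above it and the CIC::DUX4 libraries on both sides.

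In order of level per kilobase, control cells had ARNT (10.7 ± 0.628 CPM, SD, n = 3), TIPARP (7.86 ± 0.336), CYP1B1 (2.76 ± 0.578), NQO1 (1.33 ± 0.154), AHR (1.11 ± 0.121), CYP1A1 (0.558 ± 0.106), AHRR (0.183 ± 0.0402) and CYP1A2 (0.00358 ± 0.0062). NQO1 and AHR overlapped between libraries, and the other neighbours in this order did not. In CIC::DUX4 cells, CYP1A1 (1.52 ± 0.249), CYP1B1 (1.45 ± 0.36), NQO1 (1.29 ± 0.104) and AHR (1.28 ± 0.255) overlapped one another. In CIC::NUTM1 cells, ARNT (9.74 ± 0.545) and TIPARP (9.49 ± 0.341) overlapped. CYP1A1 (2.13 ± 0.574) came next there, ahead of AHR (1.49 ± 0.286), NQO1 (1.13 ± 0.357) and CYP1B1 (1.09 ± 0.332).

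Across the 9 libraries, log2 CPM of CYP1B1 had a Pearson correlation of -0.908 with CYP1A1, -0.898 with TIPARP, 0.746 with ARNT and -0.502 with AHR. CYP1A1 and TIPARP correlated at 0.919. These are descriptions over 9 points in 3 groups, so they largely restate the group differences above. By the same measure, the 5 genes most like CYP1B1, among 11730 compared that had a mean of at least 100 counts, were NCAPD2 (0.982), TMEM102 (0.974), IGFBP5 (0.971), RIMKLA (0.968) and RAB9A (0.967). IGFBP5, a secreted binding protein for insulin-like growth factors, was at 75.8, 56.5 and 52.6 CPM in control, CIC::DUX4 and CIC::NUTM1 cells. NCAPD2, a condensin subunit, was at 305, 290.2 and 279 CPM, so a gene can share the pattern of CYP1B1 with a far smaller difference. Most like CYP1A1 were TBC1D23 (0.992), DR1 (0.984) and RUNX1 (0.984), of which the transcription factor gene RUNX1 was at 12.7, 26.5 and 34.2 CPM. Most like TIPARP were PTPDC1 (0.991), the oxysterol hydroxylase gene CYP39A1 (0.989) and RBM26-AS1 (0.982).

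The chaperones, coactivators and regulators of the receptor, with other partners of ARNT, were followed in a list of 17 genes, all of them tested. For CIC::DUX4, edgeR called 1 higher and 2 lower, for CIC::NUTM1 4 higher and 1 lower, and 3 were above their CIC::DUX4 level in CIC::NUTM1 cells. Over all tested genes, 8.24%, 15.3% and 6.61% were called in these comparisons, as given above. Medians over the list were -0.08 and 0.12 on the log2 scale against the control and 0.10 between the fusions, where those of all tested genes were -0.00145, -0.000863 and -0.00528. The chaperone genes HSP90AA1, HSP90AB1 and PTGES3, whose products hold the free receptor, exceeded their CIC::DUX4 level in CIC::NUTM1 cells by 0.26, 0.27 and 0.30 on the log2 scale (edgeR adjusted p = 0.000353, 0.000343 and 0.000364). HSP90AA1 was at 2646 ± 75.3 CPM in controls, 2394 ± 60.7 in CIC::DUX4 cells and 2867 ± 86.7 in CIC::NUTM1 cells.

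Among genes whose products pair with ARNT, the hypoxia factor EPAS1 fell with both fusions, from 51.7 ± 7.29 CPM to 38.9 ± 1.45 for CIC::DUX4 and 42.2 ± 0.652 for CIC::NUTM1 (log2 fold changes -0.41 and -0.29, edgeR adjusted p = 0.00528 and 0.0408). HIF1A was at 110.2 ± 2.78, 116 ± 11.2 and 119.5 ± 10.2 CPM and was not called. NPAS3 rose with CIC::NUTM1 from 0.878 ± 0.037 to 3.01 ± 0.334 CPM (edgeR adjusted p = 0.00287). The coactivator gene NCOA3 rose with CIC::NUTM1 by 0.34 (edgeR adjusted p = 0.0372) and the clock factor gene BMAL1 with CIC::DUX4 by 0.59 (edgeR adjusted p = 0.0332) on the log2 scale. Of 9 refits that each left out a library, 5 ended the call of EPAS1 for CIC::NUTM1 and 1 (without empty vector replicate 1) that for CIC::DUX4, 5 that of BMAL1, 4 that of NCOA3 and 7 that of HSP90AA1 as lower in CIC::DUX4 cells. HSP90AB1 and PTGES3 were also called higher with CIC::NUTM1 than in controls (log2 fold changes 0.17 and 0.22, edgeR adjusted p = 0.0107 and 0.00369). The call of HSP90AB1 was lost in 3 of those refits, with upper quartile factors and with no filter, and that of PTGES3 without CIC::NUTM1 replicate 3.

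A list of 20 further genes that receptor ligands induce in some cells held 12 tested genes. For CIC::DUX4, edgeR called 3 higher (SLC7A5, ABCG2 and NEDD9) and 1 lower (CDKN1B), and for CIC::NUTM1 it called those 4 genes higher and 0 lower. At an unadjusted p under 0.05, 6 of the 12 passed in either direction. The share of all tested genes at that threshold was not taken, so this count is not read as particular to the list. Over all tested genes, 6.96% were called higher and 1.27% lower for CIC::DUX4, and 11.5% higher and 3.83% lower for CIC::NUTM1. The list medians were 0.019 and 0.24 on the log2 scale. NEDD9, which encodes an adhesion scaffold, rose from 1.77, 2.23 and 1.72 CPM in controls to 8.01, 5.61 and 6.35 in CIC::DUX4 cells and 23.5, 15.1 and 21.1 in CIC::NUTM1 cells. Its log2 fold changes were 1.79 ± 0.22 and 3.35 ± 0.21 (SE; edgeR adjusted p = 1.45e-06 and 2.27e-11), and CIC::NUTM1 exceeded CIC::DUX4 by 1.57 (edgeR adjusted p = 2.44e-06).

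The gene of the cell cycle inhibitor CDKN1B went in opposite directions. CDKN1B was at 59.2, 58.9 and 58.5 CPM in controls, fell to 41.9, 44.6 and 44.2 in CIC::DUX4 cells and rose to 112, 85.8 and 103 in CIC::NUTM1 cells (log2 fold changes -0.44 and 0.77, edgeR adjusted p = 0.00126 and 2.63e-07). CIC::NUTM1 exceeded CIC::DUX4 by 1.20 ± 0.0877 (log2, SE; edgeR adjusted p = 1.87e-09). SLC7A5, a carrier of large amino acids, rose from 370.2 ± 21.1 CPM to 458 ± 21.3 and 537 ± 50.6 (SD, n = 3). The efflux pump gene ABCG2 rose by 0.88 and 0.63 on the log2 scale. The first call was lost without CIC::DUX4 replicate 1, and the second without empty vector replicate 1 or 3 or CIC::NUTM1 replicate 1 or 3. Of enzymes classically induced together with CYP1A1, ALDH3A1 was at 1.05 ± 0.221, 1.54 ± 0.478 and 1.29 ± 0.321 CPM and CYP2S1 at 6.53 ± 0.972, 6.68 ± 1.26 and 6.84 ± 1.06 CPM, neither called. UGT1A1 and UGT1A6 had 0 counts in every library, and the 8 untested genes of the list had at most 19 counts in one. Among these untested genes, GSTA1 had 0, 0 and 0 counts in controls, 7, 5 and 5 with CIC::DUX4 and 4, 8 and 6 with CIC::NUTM1. GSTA2 had 0, 0 and 4 counts, then 1, 2 and 0, then 1, 8 and 0.

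Enzymes and carriers of tryptophan and kynurenine, from which receptor agonists are made in cells, formed a list of 15 genes with 9 tested. Each fusion had 2 called higher, AADAT and SLC7A8, and CIC::NUTM1 had 1 called lower, QPRT (edgeR). Over all tested genes, 6.96% were called higher and 1.27% lower for CIC::DUX4, and 11.5% higher and 3.83% lower for CIC::NUTM1. The list medians were 0.09 and -0.016 on the log2 scale, where those of all tested genes were -0.00145 and -0.000863. AADAT, a kynurenine aminotransferase gene, rose from 12.3, 13.7 and 12.9 CPM to 28.4, 28.8 and 23.2 in CIC::DUX4 cells and 23.7, 21.3 and 22 in CIC::NUTM1 cells (log2 fold changes 1.04 ± 0.12 and 0.78 ± 0.12, SE; edgeR adjusted p = 6.12e-07 and 2.83e-05). SLC7A8, an amino acid carrier, rose from 19 ± 2.25 to 39.2 ± 5.09 and 40.9 ± 3.55 CPM (edgeR adjusted p = 2.44e-07 and 5.87e-08). QPRT, whose enzyme uses up the kynurenine product quinolinate, fell with CIC::NUTM1 by 0.26 on the log2 scale (edgeR adjusted p = 0.0192), a call lost without empty vector replicate 1 or CIC::NUTM1 replicate 3. The genes of the enzymes that open the pathway, TDO2, IDO1 and IDO2, were below the filter, where no gene of the list exceeded 19 counts in a library.

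Because NQO1 also answers to NRF2, a list of 24 genes of that pathway was set beside it, of which 19 were tested. OSGIN1 was higher with both fusions but is left out of the calls, for a reason given below. For CIC::DUX4, edgeR called ABCC2 and MAFG higher and HMOX1 lower, and for CIC::NUTM1 it called MAFG higher and HMOX1 lower. Over all tested genes, with none left out, 6.96% were called higher and 1.27% lower for CIC::DUX4. The shares for CIC::NUTM1 were 11.5% and 3.83%. The list medians were -0.09 and -0.048 on the log2 scale, where those of all tested genes were -0.00145 and -0.000863. OSGIN1 was at 0.713 ± 0.299 CPM in controls, 6.5 ± 1.04 in CIC::DUX4 cells and 4.73 ± 0.885 in CIC::NUTM1 cells. It had 13, 34 and 10 counts in the controls, too few there to pass the filter without fusion libraries. Its levels are thus given as a description, without a test. HMOX1, the haem oxygenase gene, fell from 50.8, 41.6 and 53.7 CPM to 26.2, 33.5 and 37.9 and to 35, 36.2 and 31.1 (log2 fold changes -0.59 and -0.51, edgeR adjusted p = 0.00207 and 0.00447). The call of MAFG for CIC::DUX4 was lost without empty vector replicate 3 or CIC::DUX4 replicate 1. The glutathione synthesis genes GCLC and GCLM, thioredoxin reductase TXNRD1 and the factor's own gene, NFE2L2, were not called in any comparison. TALDO1 exceeded its CIC::DUX4 level in CIC::NUTM1 cells (edgeR adjusted p = 0.046), a call lost in 8 of 9 refits without 1 library.

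**Figure D4:**
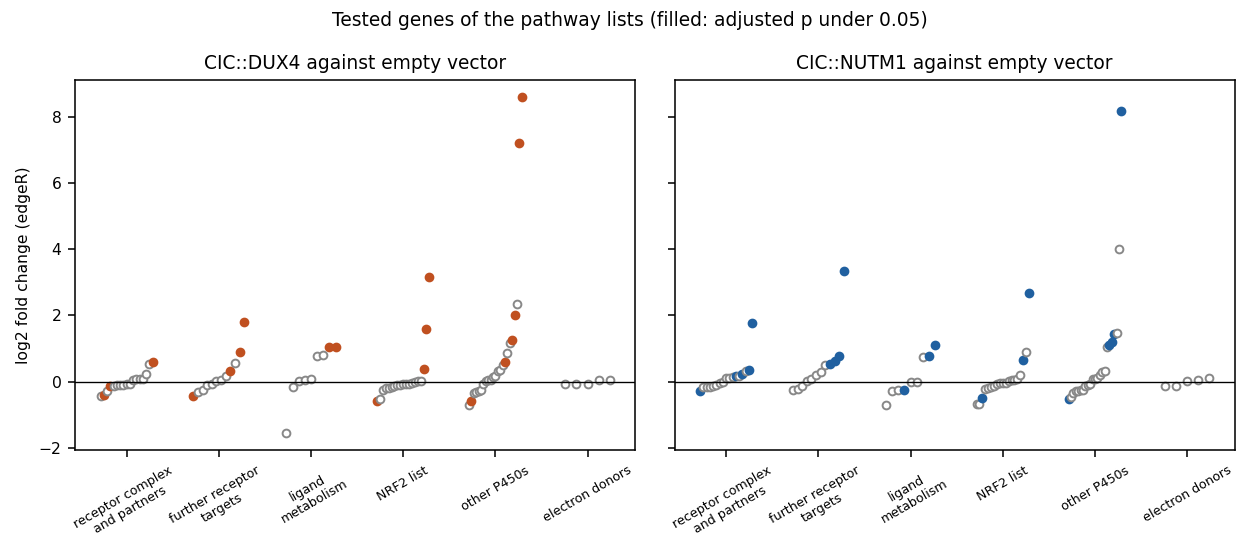
Log2 fold changes (vertical axis, edgeR) of the tested genes in 6 lists (horizontal axis, genes sorted by value within a list), for each fusion against the empty vector. Filled points passed an adjusted p under 0.05. None of the 5 electron donors is filled, and the topmost P450 points, CYP4F12 and CYP2B6, had 0 counts in the control, so their fitted values are no measure of size.

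The other cytochrome P450 genes were taken by symbol, 53 in all, of which 23 passed the filter. CYP4F12 and CYP2B6 had 0 counts in controls and passed the filter only through fusion libraries, so their higher calls followed from the filter and are left out of the counts. Of the others, edgeR called 3 higher (CYP4X1, CYP39A1 and CYP4F22) and 1 lower for CIC::DUX4, and the same 3 higher and 1 lower for CIC::NUTM1. Over all tested genes, with none left out, 6.96% were called higher and 1.27% lower for CIC::DUX4. The shares for CIC::NUTM1 were 11.5% and 3.83%. Counts this small are not read as particular to P450 genes. CYP4X1 rose from 0.629, 2.02 and 1.08 CPM to 5.26, 5.65 and 4.88 in CIC::DUX4 cells and 3.18, 2.33 and 3.57 in CIC::NUTM1 cells (edgeR adjusted p = 6.95e-05 and 0.0112, the latter lost without empty vector replicate 1 or 3 or CIC::NUTM1 replicate 3). CYP4F12 reached 2.11 ± 1.22 CPM with CIC::DUX4 and 1.6 ± 0.898 with CIC::NUTM1, at least 16.6-fold and 12.7-fold higher than the mean level that 3 counts per control library would give. CYP2B6 was at 0.816 ± 0.142 CPM with CIC::DUX4, at least 6.45-fold higher, and at 0.0927 ± 0.129 with CIC::NUTM1, where it was not called. Reads of CYP4F12 and CYP2B6 may be split with close relatives and are uncertain. CYP39A1 rose with CIC::NUTM1 from 4.95 ± 0.748 to 13.4 ± 1.13 CPM (log2 fold change 1.43 ± 0.18, SE; edgeR adjusted p = 2.03e-06). It was also called for CIC::DUX4 (0.60, edgeR adjusted p = 0.0456), a call lost in 7 of 9 refits without 1 library. CYP4F22, an enzyme gene of skin ceramide synthesis, rose with both fusions (edgeR adjusted p = 0.0199 and 0.0316), calls lost in 2 and 4 of 9 refits.

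The P450 genes called lower were CYP26B1, whose enzyme degrades retinoic acid, for CIC::DUX4 and CYP4V2, a fatty acid hydroxylase gene, for CIC::NUTM1. CYP26B1 was at 8.18 ± 1.3 CPM in controls and 5.42 ± 0.536 in CIC::DUX4 cells (log2 fold change -0.59, edgeR adjusted p = 0.0491, lost in 5 of 9 refits without 1 library). CYP4V2 was at 14.1 ± 1.29 CPM in controls and 9.77 ± 1.91 in CIC::NUTM1 cells (-0.52, edgeR adjusted p = 0.0197, lost in 3 of 9). The genes of the electron donors that P450 enzymes need, POR, CYB5A, CYB5R3, FDX1 and FDXR, were not called in any comparison: 0 of 5 passed with edgeR, also at an unadjusted p under 0.05. With 8.24%, 15.3% and 6.61% of all tested genes called for CIC::DUX4, CIC::NUTM1 and between the fusions, 0 of 5 is not read as particular to these genes. POR, which serves CYP1A1 and CYP1B1, was at 102 ± 2.43, 107 ± 0.991 and 105 ± 4.17 CPM in control, CIC::DUX4 and CIC::NUTM1 cells.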

How the data were processed

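PolyA-selected RNA of 9 HEK293T libraries was sequenced, 3 for each plasmid. The deposited files hold raw counts per Ensembl gene and log2 CPM per named gene, both made by the authors. The submitters' processing notes name STAR 2.7.10b, R 4.2.2, edgeR 3.40.2 and GRCh38. The counting program, its use of strand and the annotation are not given in the sources used here. Symbols matched 62622 of 62700 IDs. GENCODE 29 gave positions, overlaps and exon lengths, and RefSeq (GRCh38.p14) the promoters.

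Deposited counts were tested in edgeR 4.0.16 (R 4.3.3). Of 34765 genes with a count, filterByExpr kept 17576. After TMM scaling, the quasi-likelihood test with robust fitting used all 9 libraries, which share the estimate of spread. A gene was called at an adjusted p under 0.05 (Benjamini-Hochberg, all tested genes). SEs were obtained as the size of the log2 fold change over the square root of F, intervals are 95%, and the floor of 3 counts covers counting error only.

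Named genes are the 8 members, the called genes of each list (at most 6 a comparison) and the genes most correlated with CYP1B1 or a called member. Genes named beyond that, HIF1A, ALDH3A1, CYP2S1, UGT1A1, UGT1A6, GSTA1, GSTA2, TDO2, IDO1, IDO2, GCLC, GCLM, TXNRD1, NFE2L2 and the uncalled neighbours and electron donors, were picked for their roles after their values were seen. The members and lists were chosen with earlier results of these data known. Both comparisons with empty vector share its libraries. Libraries of a group differed by more than counting noise (chi-square per degree of freedom 6.1 to 10.6). Alternatives used DESeq2 1.42.0, limma 3.58.1 on the deposited log2 CPM, other scalings and filters, a replicate block, the compared groups alone and each library left out. The edgeR fit, its replicate block, 1 fit without a library and the DESeq2 fit were tried on simulated counts. There all genes shared 1 spread and only the CIC::DUX4 group was changed. The other alternatives were not tried in this way. Figures were drawn with matplotlib 3.10.9.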

Additional observations from a re-analysis of the deposited data

How the results depend on the processing

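CYP1B1 kept its direction in all 18 alternatives of each comparison: -1.12 to -0.75 for CIC::DUX4, -1.62 to -1.15 for CIC::NUTM1 and -0.68 to -0.21 between the fusions on the log2 scale, the last with adjusted p of 0.0682 to 0.771 (edgeR, DESeq2 or limma). For CIC::NUTM1, the other members called higher were 1 in place of 2 with library totals, with upper quartile factors and with no filter, and 1 to 2 over the refits without 1 library. TIPARP was the gene lost, and the cause was not tested. Uncalled differences changed sign over the refits without 1 library: -0.0431 to 0.291 for AHRR and -0.134 to 0.0319 for NQO1 with CIC::DUX4, and -0.411 to 0.00393 for NQO1 between the fusions. The signs turned without empty vector replicate 3 (AHRR -0.0431, NQO1 0.0319), CIC::DUX4 replicate 2 (NQO1 0.0109) and, between the fusions, CIC::NUTM1 replicate 3 (NQO1 0.00393).

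Same-numbered libraries of different groups had correlations of deviations between -0.0308 and 0.0753, so the numbers were not taken as pairs. With the replicate number as a block, CYP1B1 was at -0.947, -1.34 and -0.394 and CYP1A1 at 1.44, 1.91 and 0.475 for CIC::DUX4, CIC::NUTM1 and their difference, and no call on a member changed. The block gave 2 in place of 1 NRF2 list genes lower with CIC::NUTM1, 0 in place of 1 higher between the fusions, and 0 in place of 1 P450 genes lower with CIC::DUX4. Library totals gave 4, 0 and 0 for these counts, 1 in place of 0 further receptor targets lower with CIC::NUTM1, and 2 in place of 1 P450 genes lower with CIC::NUTM1. Between the fusions they also gave 2 in place of 1 P450 genes lower, but that 1 was CYP2B6, left out of the P450 counts above. Over all genes, the share of calls that were higher moved from 75% to 61% with library totals and 61.7% with upper quartile factors for CIC::NUTM1 against empty vector, and from 75.2% to 61.4% with library totals between the fusions. By Spearman correlation, 2 of the 5 genes most like CYP1B1 remained. Of the genes named as most like CYP1A1 only RUNX1 remained, and of those named for TIPARP none did. AHRR, with 13 to 58 counts per library, and CYP1A2, with 0 to 4, are limited by depth.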
